A study of Danio rerio with 24 samples.

Results

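The genes described here are markers of macrophages and of leukocytes in general, followed through bulk RNA-Seq of larval zebrafish liver. They were chosen by name from a list of 10 symbols, with earlier results of these data known. The macrophage genes were *marco*, *mpeg1.1*, *mfap4*, *havcr1*, *csf1ra* and *spi1b*, and the pan-leukocyte genes were *ptprc*, *lcp1*, *coro1a* and *lsp1*. Of these, 8 had a row of their own among the 19793 genes of the count table, and *spi1b* and *lcp1* were not analysed here in that table. Of the 8, 6 were among the 11489 genes that passed the filter on low counts (at least 5 reads in at least 0.8 of the libraries), whereas *csf1ra* and *ptprc* fell under it and were read from their counts.

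The table held 18 libraries from pools of 40 dissected livers, all labelled as taken at 7 days post fertilization (dpf), although the results text of the study gives an earlier age. WT was the AB strain with neither treatment (4 libraries). The *mtm* group was homozygous for a loss-of-function mutation in *mtm1*, the gene mutated in X-linked myotubular myopathy (6 libraries). Of these 6, 3 were labelled as resubmitted (R1, R2 and R3), and the labels do not say whether they came from new pools of larvae. The overfed group was WT given 6 times the usual food from day 5 to day 7 (4 libraries), and the EtOH group was WT kept in 2% ethanol for 32 hours (4 libraries). The mutation was carried in all tissues of the larva. Replicates are separate pools only as far as the labels go, so the p-values measure the spread between these libraries.

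Macrophages are phagocytes that take up dying cells, lipid and microbes, and those that reside in the mammalian liver are called Kupffer cells. Their development involves the transcription factor PU.1, encoded by *spi1b* in zebrafish, and a receptor for CSF1 and IL-34, encoded by *csf1ra*. Each of these 2 genes has a close copy, *spi1a* and *csf1rb*. Leukocytes share a set of surface and actin-binding proteins, among them CD45 (*ptprc*), L-plastin (*lcp1*), coronin 1A (*coro1a*) and LSP1 (*lsp1*), so these genes mark macrophages and neutrophils alike without telling them apart.

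Library totals ran from 8919274 to 20582311 estimated counts. *mtm1* itself was at 3.22 to 7.88 CPM (counts scaled to library size) in WT, 3.78 to 7.69 CPM in overfed and 0.158 to 2.37 CPM in *mtm* libraries. In EtOH it was at 0.174 CPM in library 1 and 2.22 CPM in library 2, each inside the *mtm* range. It was at 4.14 and 4.86 CPM in EtOH 3 and EtOH 4. *mtm* R2 had 847 tested genes at 0 and EtOH 1 had 472, against 2 to 133 in each of the others. Results that rest on these libraries are given with and without them. As a check of the labelled tissue, hepatocyte genes summed to 220254 to 365828 CPM in WT (15 genes), and exocrine pancreas genes took 1275 to 73712 CPM there (13 genes).

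RNA of these marker genes was higher in *mtm* than in WT liver. All 6 genes that passed the filter were called higher (edgeR adjusted p under 0.05), where 10.1% of all tested genes were. Their median log2 fold change was 4.26, beside 0.01 over all tested genes. *mpeg1.1* passed the filter only with the *mtm* libraries counted, having 5 or more reads in 3 of 4 libraries of each other group. For 7 of the 8 genes, *coro1a* being the exception, every *mtm* library was above every WT library, where 6.88% of tested genes were so placed. The 8 include *csf1ra* and *ptprc*, which fell under the filter, so here and below such counts and shares cover unlike sets of genes. In pooled tissue, more cells of a type and more RNA per cell cannot be told apart.

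*marco* encodes a scavenger receptor of tissue macrophages that binds bacteria and particles. It was at 2.01, 3.4, 0.429 and 1.1 CPM in the WT libraries 1 to 4, and at 25.2, 57.3, 28.9, 45.6, 65.4 and 64.5 CPM in *mtm* 1, 2, 3, R1, R2 and R3. The lowest *mtm* library was far above the highest WT library. The log2 fold change was 4.91 ± 0.54 (SE, edgeR adjusted p = 1.70e-05), and the *mtm* mean of 47.8 ± 17.6 CPM (SD, n = 6) was 27.6 times the WT mean of 1.73 ± 1.28 CPM (SD, n = 4).

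*mfap4* encodes a microfibril-associated glycoprotein whose promoter is used to label macrophages in zebrafish. Its WT values were 2.78, 2.06, 0.572 and 2.29 CPM, and its *mtm* values in the order above were 31.8, 137, 59, 75.1, 49.5 and 94.5 CPM. All *mtm* libraries lay above all WT libraries, with a wide spread inside the *mtm* group. Of the 6 tested genes it had the highest fold change, 5.57 ± 0.81 (SE, edgeR adjusted p = 0.000161) on the log2 scale. The symbol is shared by 8 gene IDs in the name table used here, so reads may be split among near-identical copies and its level is uncertain.

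*havcr1* encodes TIM-1, a receptor for phosphatidylserine on dying cells. In WT it was at 1.23, 1.96, 0.644 and 1.02 CPM, and in *mtm* at 15.8, 35.1, 17.3, 23.7, 29.6 and 26.2 CPM. The groups did not overlap, and the log2 fold change was 4.29 ± 0.50 (SE, edgeR adjusted p = 2.56e-05).

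*mpeg1.1* encodes perforin-2, a pore-forming protein of phagocytes and the usual macrophage reporter gene in zebrafish. It was at 1.36, 0.618, 0.143 and 0.763 CPM in WT and at 7.15, 13, 7.57, 12.6, 15.1 and 16.1 CPM in *mtm*. The groups were again apart, but WT held only 2 to 21 counts per library, and the log2 fold change of 4.23 ± 1.11 (SE, edgeR adjusted p = 0.0124) had a wide error. By edgeR, the adjusted p was 0.0509 without WT 2, 0.0582 without WT 3, and 0.0581 when *mtm* 1, 2 and 3 were used and the resubmitted ones left out.

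*csf1ra*, which encodes a receptor for CSF1 and IL-34, was near the limit of detection in WT at 0, 0.206, 0.0715 and 0.17 CPM, 5 counts in all. The *mtm* libraries were at 0.96, 1.86, 2.92, 9.59, 5.23 and 4.44 CPM (9 to 121 counts each). Every *mtm* library was above every WT library, and mean log2 CPM differed by 3.88 (two-sided exact permutation p = 0.00476, the smallest that 6 against 4 libraries allow). The permutation takes the 6 *mtm* libraries as separate pools, which the labels do not settle. Without the filter, edgeR gave a log2 fold change of 6.05 ± 1.19 (SE, adjusted p = 0.00147), in a fit that called 6.1% of its genes higher.

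Among the pan-leukocyte genes, *ptprc*, which encodes the surface phosphatase CD45, also fell under the filter. Its WT values were 1.49, 1.34, 0 and 0.0848 CPM, and its *mtm* values were 8.64, 9.58, 9.5, 14.1, 23.9 and 15.2 CPM. Neither group reached the range of the other. The difference in mean log2 CPM was 4.63 (two-sided exact permutation p = 0.00476), and the edgeR fit without a filter gave 4.26 ± 1.01 (SE, adjusted p = 0.00675). In all, 12 such permutation tests were made, over *csf1ra* and *ptprc* in the 6 comparisons, with no adjustment. Those with *mtm* all took its libraries, first and resubmitted, as separate pools.

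*coro1a* encodes coronin 1A, which binds the actin cortex of leukocytes. It was at 5.63, 0.927, 0.93 and 2.12 CPM in WT, and at 32.2, 44.8, 35.4, 29.6, 0 and 44.6 CPM in *mtm*. Library *mtm* R2 held 0 counts, which allows up to 0.238 CPM (3 counts, counting error only), while the other *mtm* libraries were all above WT. *coro1a* was 1 of 3 genes at 0 in *mtm* R2 that had 200 or more counts in each of the other *mtm* libraries. The log2 fold change was 4.05 ± 1.05 (SE, edgeR adjusted p = 0.0117) with that library and 4.36 without it (edgeR adjusted p = 0.000122). The edgeR adjusted p was 0.0506 without WT 2, 0.0576 without WT 3 and 0.0999 in a fit of the *mtm* and WT libraries alone.

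*lsp1* encodes an actin-binding protein of leukocytes that is also known from endothelial cells of mammals. Unlike the other genes it was well counted in every WT library (320 to 402 counts), at 20.7, 41.4, 23.2 and 33.6 CPM. In *mtm* it was at 155, 224, 312, 266, 117 and 171 CPM, and the lowest of these was above the highest WT value. The log2 fold change was 2.84 ± 0.32 (SE, edgeR adjusted p = 1.78e-05), the lowest of the 6.

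**Figure D1:**
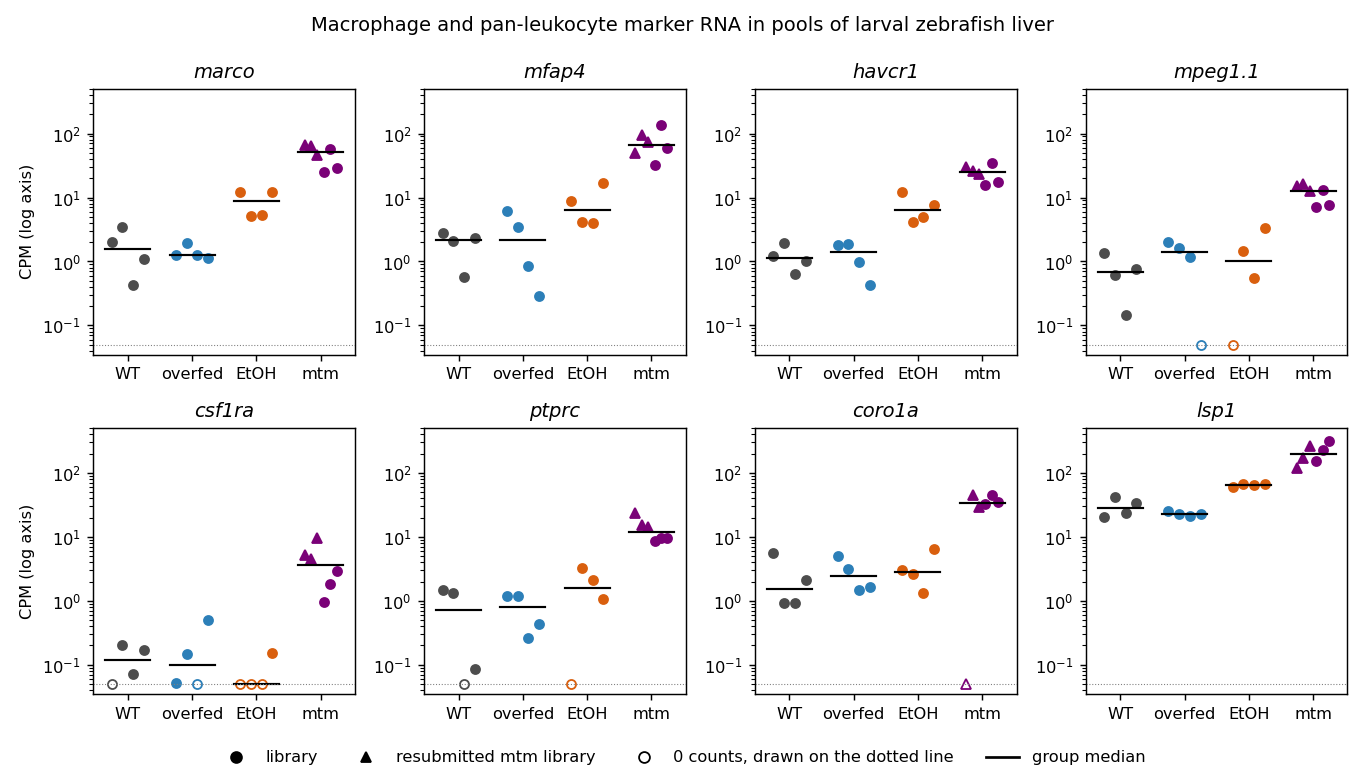
CPM of the 8 marker genes on a log axis, 1 panel per gene. Each point is a library of 40 livers, triangles are resubmitted *mtm* libraries, open symbols on the dotted line are libraries with 0 counts, and black lines are group medians. The *mtm* libraries lie above all WT libraries for every gene but *coro1a*, where *mtm* R2 has 0 counts.

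The *mtm* libraries differed among themselves. *mtm* 1 was the lowest of the 6 for 6 of the 8 genes (*marco*, *mfap4*, *havcr1*, *mpeg1.1*, *csf1ra* and *ptprc*), and it had the highest summed hepatocyte level of its group, 228760 CPM against 43943 to 97291 CPM in the others. WT 3, the lowest WT library for 5 of the 8 genes, likewise had the highest hepatocyte sum of the 4 (365828 CPM). *mtm* R1, with the lowest hepatocyte sum of its group (43943 CPM), was the highest *mtm* library for 1 of the 8 genes. EtOH 2 had the lowest hepatocyte sum in EtOH (115465 CPM). It was the lowest EtOH library for *marco* and *havcr1* and the highest for *ptprc* and *lsp1*. The part of the hepatocyte share in these levels was not tested.

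The first and the resubmitted *mtm* libraries did not overlap for *csf1ra* (0.96 to 2.92 CPM against 4.44 to 9.59 CPM) and *ptprc* (8.64 to 9.58 CPM against 14.1 to 23.9 CPM). They overlapped for the other 6 genes. Against WT, *mtm* 1 to 3 alone gave 5 of 6 genes called (all but *mpeg1.1*), where 875 of 11935 tested genes were called higher. R1 to R3 alone gave 5 of 6 (all but *coro1a*, at 3.59 with an edgeR adjusted p of 0.0741), where 1051 of 11912 were. No WT library was labelled as resubmitted, so in the fit of R1 to R3, submission and genotype cannot be told apart.

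**Figure D2:**
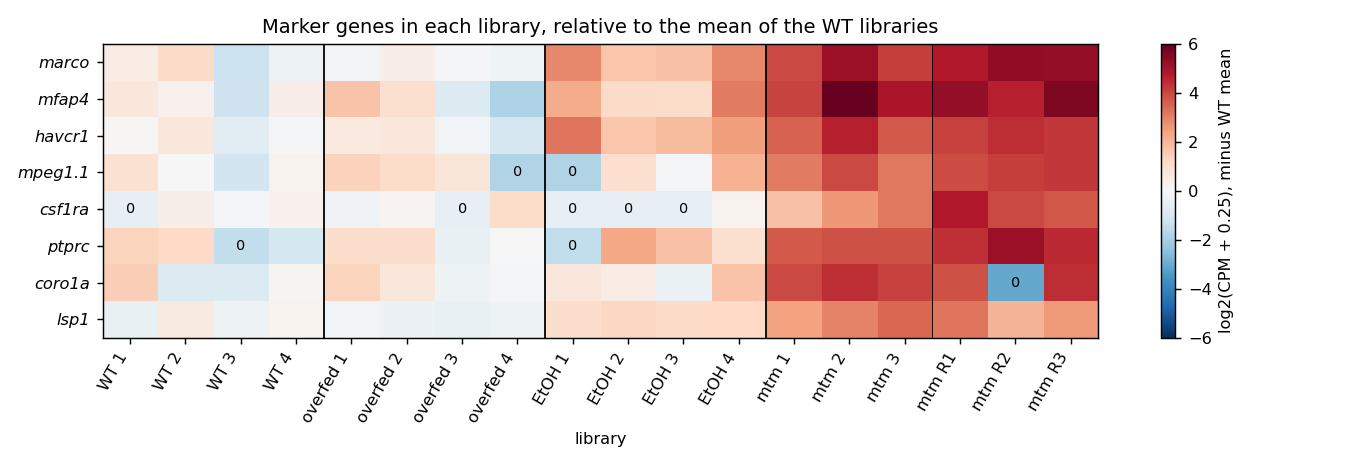
Log2 CPM of each marker gene in each of the 18 libraries, minus the mean of the 4 WT libraries. Red is above and blue below the WT mean, and libraries with 0 counts are marked. The *mtm* columns are red throughout but for *coro1a* in *mtm* R2.

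Ethanol-treated livers had a smaller rise, in fewer of the genes. *marco*, *havcr1* and *lsp1* were called higher than in WT, 3 of the 6 tested genes, where 4.66% of all tested genes were. Over the 6, the median was 1.63 on the log2 scale, beside -0.03 over all tested genes. The EtOH libraries lay wholly above WT for 4 of the 8 genes, *mfap4* being the fourth, where 8.06% of tested genes did so.

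The scavenger receptor gene *marco* was at 12.2, 5.09, 5.39 and 12.1 CPM in EtOH 1 to 4, each above the highest WT value, with a log2 fold change of 2.47 ± 0.51 (SE, edgeR adjusted p = 0.00644). In a fit of the EtOH and WT libraries alone, *marco* was at 2.56 with an edgeR adjusted p of 0.0582. *havcr1* was at 12.4, 4.16, 5.0 and 7.71 CPM, likewise all above WT, and its log2 fold change was 2.68 ± 0.48 (SE, edgeR adjusted p = 0.00225). EtOH 1 and EtOH 4 were the highest for both genes.

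The values of *lsp1* in EtOH lay close together at 59.5, 67.1, 63.6 and 66.8 CPM, again above all WT libraries. Its log2 fold change was 1.12 ± 0.30 (SE, edgeR adjusted p = 0.0313). That call was lost on leaving out any EtOH library, or WT 1, 3 or 4, with the highest edgeR adjusted p, 0.128, without WT 1, where the log2 fold change was 0.97.

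*mfap4*, at 8.92, 4.07, 3.98 and 16.7 CPM in EtOH, was above the WT range in every library. Its log2 fold change of 2.13 ± 0.72 (SE, edgeR adjusted p = 0.0854) did not pass the threshold, while DESeq2 gave 2.13 with an adjusted p of 0.0167. Without overfed 4, which is in neither group but shares the estimate of spread, the edgeR adjusted p was 0.0444.

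The remaining genes overlapped between EtOH and WT. *mpeg1.1* was at 0, 1.48, 0.547 and 3.39 CPM, with EtOH 1 below and EtOH 2 and EtOH 4 above all WT libraries, and a log2 fold change of 0.75 ± 1.12 (SE, edgeR adjusted p = 0.765). *coro1a*, at 3.07, 2.59, 1.33 and 6.55 CPM, had a log2 fold change of 0.61 ± 0.99 (SE, edgeR adjusted p = 0.791). For both, the error was too wide to show a change of the size seen for *lsp1*.

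*ptprc* was at 0, 3.24, 2.11 and 1.08 CPM in EtOH, a difference from WT in mean log2 CPM of 1.03 (two-sided exact permutation p = 0.486). *csf1ra* had 2 counts in EtOH 4 and 0 in the other EtOH libraries, at or under the floor of 3 counts, and a difference from WT was not detectable at this depth (two-sided exact permutation p = 0.257).

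EtOH 1 was at 0 for 3 of the 8 genes (*mpeg1.1*, *ptprc* and *csf1ra*) and was the highest EtOH library for *marco* and *havcr1*. Without it, the log2 fold changes of *marco* and *havcr1* were 2.16 and 2.37 and both were called, whereas *lsp1* was not (edgeR adjusted p = 0.0692). Skeletal muscle genes were also at a higher summed level in EtOH, 551 to 8302 CPM against 85.7 to 529 CPM in WT (11 genes). The highest muscle sum was in EtOH 2, which was the lowest EtOH library for *marco* and *havcr1* and the highest for *ptprc* and *lsp1*.

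Overfed livers gave no call for these genes. None of the 6 was called, and neither was any of the 11489 tested genes (0% by edgeR), although 493 had an unadjusted p under 0.05. DESeq2 called 12 genes higher and 12 lower, and none of these was a marker gene described here. No gene of the 8 lay wholly above WT, where 2.37% of tested genes did.

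*marco* was at 1.24, 1.95, 1.26 and 1.15 CPM in overfed 1 to 4 and *lsp1* at 25.2, 22.3, 21.1 and 23.1 CPM, inside the WT ranges. Log2 fold changes were -0.20 ± 0.50 for *marco*, -0.36 ± 0.30 for *lsp1* and 0.07 ± 0.47 for *havcr1* (SE). They were 0.50 ± 0.72 for *mfap4*, 0.40 ± 0.97 for *coro1a* and 0.89 ± 1.05 for *mpeg1.1*. The 95% intervals were -0.91 to 1.91 for *mfap4*, -1.5 to 2.3 for *coro1a* and -1.17 to 2.94 for *mpeg1.1*. For these genes a change of the size seen for *lsp1* in EtOH could not be told from none.

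*mfap4* spread most in overfed livers, at 6.11, 3.5, 0.861 and 0.287 CPM. *havcr1* was at 1.81, 1.9, 0.993 and 0.431 CPM and *coro1a* at 4.97, 3.16, 1.46 and 1.65 CPM. Overfed 1 was the highest of the 4 for 5 of the 8 genes. *mpeg1.1* was at 2.02, 1.61, 1.19 and 0 CPM, *ptprc* at 0.265 to 1.19 CPM and *csf1ra* at 0 to 0.503 CPM, and for these last genes the two-sided exact permutation p against WT was 0.60 and 0.857.

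The *mtm* and EtOH groups were compared directly, since a call against WT in 1 group and not in another does not show that they differ. *mtm* was called higher for *marco*, *mfap4*, *havcr1* and *lsp1*, 4 of the 6 tested genes, where 2.87% of all tested genes were. For 7 of the 8 genes, all but *coro1a*, every *mtm* library was above every EtOH library, where 3.65% of tested genes were so placed.

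The log2 differences were 2.44 ± 0.49 (SE, edgeR adjusted p = 0.00864) for *marco*, 3.43 ± 0.77 (SE, edgeR adjusted p = 0.0152) for *mfap4* and 1.72 ± 0.30 (SE, edgeR adjusted p = 0.00413) for *lsp1*. That of *havcr1* was 1.61 ± 0.44 (SE, edgeR adjusted p = 0.0383). The call for *havcr1* was lost in 9 of the fits that left out 1 library, with an edgeR adjusted p of up to 0.132 (without EtOH 3). That for *mfap4* was lost without EtOH 1, 2 or 3 (edgeR adjusted p up to 0.0706).

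*mpeg1.1* and *coro1a* stood higher in *mtm* by 3.48 ± 1.19 and 3.45 ± 1.06 on the log2 scale (SE) without passing the threshold (edgeR adjusted p = 0.0847 and 0.0598). Without *mtm* R2, *coro1a* was at 3.81 with an edgeR adjusted p of 0.0035, and 5 of 6 genes were called. Without EtOH 1, 3 genes were called, and 2 without EtOH 2 or EtOH 3. A fit of the *mtm* and EtOH libraries by themselves called 1, *mfap4*, and over all 11617 genes it called 17 higher and 30 lower. *csf1ra* and *ptprc* differed by 4.39 and 3.6 in mean log2 CPM (two-sided exact permutation p = 0.00476 for each). In the edgeR fit without the filter, which called 1.55% of its genes higher, *csf1ra* was called (adjusted p = 0.0028) and *ptprc* was not (2.85 ± 0.96 SE, adjusted p = 0.105).

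Against overfed liver, all 6 tested genes were called higher in *mtm*, where 13.8% of all tested genes were. Among the 6 is *mpeg1.1*, which passed the filter only with the *mtm* libraries counted. The log2 fold changes ran from 3.2 ± 0.32 (SE, edgeR adjusted p = 4.02e-06) for *lsp1* to 5.1 ± 0.54 (SE, edgeR adjusted p = 7.55e-06) for *marco*. For 7 of the 8 genes the groups were apart, beside 10.9% of tested genes. *mpeg1.1* was not called without overfed 2 or 3 (edgeR adjusted p up to 0.0676), nor *coro1a* without *mtm* 2 or overfed 3 (up to 0.0594).

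EtOH was called higher than overfed for *marco* (2.67 ± 0.51), *havcr1* (2.61 ± 0.47) and *lsp1* (1.48 ± 0.30), 3 of 6 by edgeR, where 8.26% of all tested genes were. These 3 were also the genes, of 8, whose EtOH libraries lay wholly above overfed, beside 13.7% of tested genes. Both comparisons with overfed share the *mtm* or EtOH libraries with those above and are not a repeat of them.

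**Figure D3:**
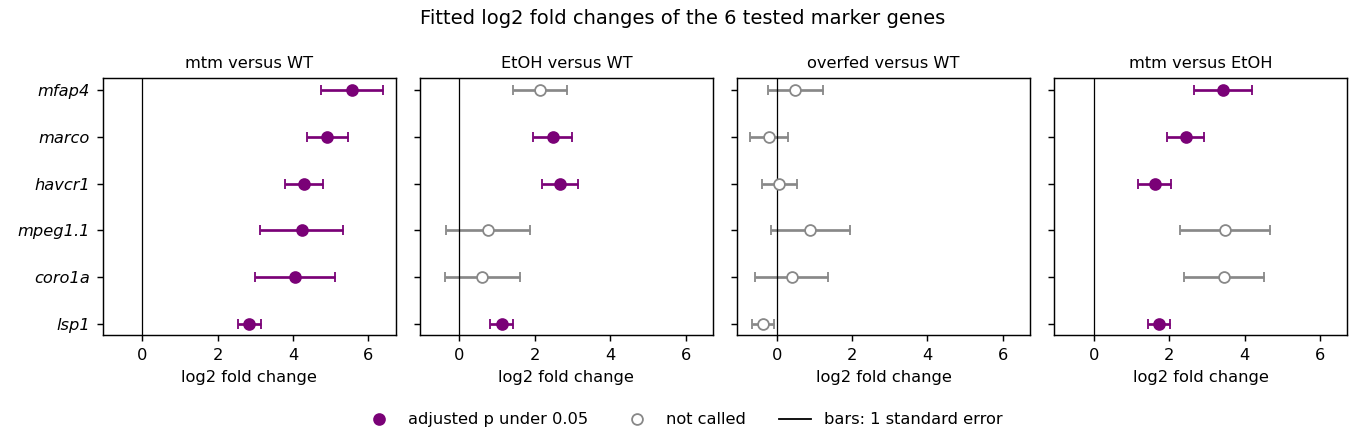
Log2 fold changes of the 6 tested marker genes in 4 comparisons, with bars of 1 standard error. Filled points have an edgeR adjusted p under 0.05. All 6 are filled in *mtm* versus WT, 3 in EtOH versus WT, none in overfed versus WT and 4 in *mtm* versus EtOH.

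Ratios of reads within a library, chosen after the values were seen and not corrected for gene length, compare libraries only. Reads of *marco* per read of *mpeg1.1* were 3.52 to 4.4 in the 6 *mtm* libraries, 1.44 to 5.5 in WT and 3.44 to 9.86 in the 3 EtOH libraries with *mpeg1.1* reads. Reads of *marco* per read of *havcr1* were 1.59 to 2.47 in *mtm* and 0.981 to 1.57 in EtOH. They were 0.667 to 1.74 in WT and 0.686 to 2.67 in overfed, both overlapping *mtm*. Reads of *lsp1* per read of *marco* were 10.3 to 54.2 in WT and 1.79 to 10.8 in *mtm*. In *mtm*, reads of *mfap4* per read of *marco* were 0.757 to 2.39, and reads of *marco* per read of *coro1a* were 0.781 to 1.54 in the 5 libraries with *coro1a* reads. Of these ratios, that of *lsp1* to *marco* spread most across *mtm* libraries relative to its lowest value, and that of *marco* to *mpeg1.1* least.

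Close copies of the marker genes were read as well. *mpeg1.2*, a second perforin-2 gene, was under the filter, at 0.206 to 0.453 CPM in WT, 2.67 to 15.1 CPM in *mtm* and 0 to 0.207 CPM in overfed. Unlike *mpeg1.1*, it was above the WT range in every EtOH library, at 11, 5.09, 1.48 and 4.24 CPM, and EtOH 1, with no *mpeg1.1* reads, was the highest of these. Reads of such similar genes can be shared out between them by the quantification. *mpeg1.3* had at most 3 counts in any library and *coro1cb* none.

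*spi1a*, the other zebrafish PU.1 gene, had a log2 fold change in *mtm* of 0.95 ± 0.40 (SE, edgeR adjusted p = 0.116). *lcp2a*, which encodes a signaling adaptor of leukocytes and is listed here for its symbol, not as a copy of *lcp1*, rose by 2.36 ± 0.70 (SE, edgeR adjusted p = 0.0249). *coro1ca*, a coronin gene, rose by 0.74 ± 0.24 (SE, edgeR adjusted p = 0.0436), and *coro1b* was at 0.09 ± 0.69. *csf1rb* (0 to 6.58 CPM in *mtm*, 0 to 0.286 CPM in WT), *havcr2* (0 to 2.93 and 0 to 0.0848 CPM) and *lcp2b* (0.555 to 1.19 and 0 to 0.618 CPM) were under the filter. In EtOH none of these 4 tested genes was called. With EtOH 1 and *mtm* R2 left out, a choice made after the data were seen, 3 of these 4 were called higher in *mtm* than in WT. That fit called 1424 of 11947 tested genes higher in *mtm*.

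Beside the list counts that follow, 10.1% of all tested genes were called higher in *mtm* than in WT and 4.66% in EtOH. Around the CSF1 receptor and PU.1, 3 of 7 tested genes were called higher in *mtm* than in WT and none lower, with a median log2 fold change of 1.45. They were *il34*, a ligand of the receptor (5.18 ± 0.72 SE, edgeR adjusted p = 0.000108), *irf8*, a transcription factor that macrophages require in zebrafish (3.0 ± 0.68, adjusted p = 0.00499), and *cebpb*, a transcription factor of myeloid cells that hepatocytes also express (1.45 ± 0.32, adjusted p = 0.00422). *cebpa* (0.47 ± 0.40, adjusted p = 0.48), *gata2a* and *myb* were not called, and the ligand genes *csf1a* and *csf1b* were under the filter. With EtOH 1 and *mtm* R2 left out, 4 of the 7 were called higher in *mtm*, where 1424 of 11947 tested genes were. In EtOH, *cebpb* (1.56 ± 0.34 SE, edgeR adjusted p = 0.0095) and *irf8* (2.36 ± 0.68, adjusted p = 0.0448) were called higher, 2 of 7, and *il34* was at 2.06 ± 0.67.

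Most of the other genes listed for macrophages were also called higher in *mtm*. Of 16 tested, 14 were called higher in *mtm* than in WT and none lower (median log2 fold change 2.63). The most abundant, besides *cebpb*, were *apoeb*, an apolipoprotein E gene (2.3 ± 0.41 SE, edgeR adjusted p = 0.000821), *hmox1a*, heme oxygenase (3.88 ± 0.60, adjusted p = 0.000254), and *lgmn*, a lysosomal protease (1.3 ± 0.27, adjusted p = 0.00265). The genes not called were *mertka* and *cd36*. Log2 fold changes were above 0 for 15 of the 16, and the lowest, in a gene not called, was -3.17. In EtOH 6 of the 16 were called higher (median 1.43), *apoeb* (1.46 ± 0.42 SE, edgeR adjusted p = 0.0413) and *hmox1a* (3.13 ± 0.60, adjusted p = 0.00396) among them, and *lgmn* was at 0.49 ± 0.27. Of the 31 listed genes, 5 stand in another list as well, *cebpb*, *irf8* and *il34* among them. In WT this list summed to 660 to 1300 CPM (27 genes), against 1.86 to 8.24 CPM for the macrophage marker genes (5 genes). The part of other cell types in the list was not tested.

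Of 19 other pan-leukocyte genes tested, 15 were called higher in *mtm* and none lower (median 2.62). Among the most abundant were *cotl1*, an actin-binding protein (2.12 ± 0.32 SE, edgeR adjusted p = 0.000232), *rac2*, a GTPase of leukocyte movement (1.37 ± 0.20, adjusted p = 0.000143), and *arpc1b*, a subunit of the Arp2/3 complex (3.91 ± 0.55, adjusted p = 0.000131). In EtOH 3 of the 19 were called, namely *cybb*, *wasb* and *elmo1*, with a list median of 0.84. By edgeR, *rac2* (0.06 ± 0.20, adjusted p = 0.903) and *cotl1* (0.39 ± 0.31, adjusted p = 0.526) were not. With EtOH 1 and *mtm* R2 left out, a choice made after the data were seen, 1 of the 19 was called in EtOH. That fit called 456 of 11947 tested genes higher in EtOH than in WT. No gene of either list was called in overfed.

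Markers of other cells that a dissected liver could hold were read beside these results. Of 8 neutrophil genes tested, 7 were called higher in *mtm* (median 3.06), among them *lect2l* (3.02 ± 0.50 SE, edgeR adjusted p = 0.000462), *srgn* (2.75 ± 0.52, adjusted p = 0.00136) and *nccrp1* (1.83 ± 0.30, adjusted p = 0.000448). The others called, all less abundant, were *npsn* (4.63 ± 1.03 SE, edgeR adjusted p = 0.00422), *mmp9* (4.59 ± 0.48, adjusted p = 9.98e-06), *lyz* (4.08 ± 0.72, adjusted p = 0.000765) and *padi2* (3.09 ± 0.63, adjusted p = 0.00236). The gene not called was *cpa5*, also listed for the exocrine pancreas (edgeR -1.59 ± 1.49, adjusted p = 0.533). In EtOH 3 of the 8 were called, *lect2l*, *srgn* and *mmp9*. The neutrophil sum was 422 to 8321 CPM in WT, 982 to 5039 CPM in *mtm*, 339 to 851 CPM in overfed and 2498 to 5173 CPM in EtOH (10 genes, none at 0 in a whole group). Much of the highest WT value was *cpa5*, at 123 to 7866 CPM in WT. Without it, a choice made after the data were seen, the sum of the other 9 was 142 to 455 CPM in WT, 957 to 3574 CPM in *mtm*, 156 to 455 CPM in overfed and 1647 to 3252 CPM in EtOH, so that *mtm* and EtOH lay wholly above WT. Much of this 9-gene sum was *lect2l*, at 108 to 382 CPM in WT, 588 to 3211 CPM in *mtm* and 1533 to 3072 CPM in EtOH. In EtOH *lyz*, *npsn*, *padi2* and *nccrp1* were not called (edgeR adjusted p = 0.309, 0.42, 0.0976 and 0.134). The part of neutrophils in the pan-leukocyte levels was not tested.

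Lymphocyte markers were scarce. Of 23 in the table, 2 passed the filter, *blnk*, an adaptor of B cells (1.37 ± 0.46 SE, edgeR adjusted p = 0.047 in *mtm*), and *tox* (-1.16 ± 1.32, adjusted p = 0.62), and neither was called in EtOH. Their sum was 14.1 to 20.7 CPM in WT, 23.6 to 42.7 CPM in *mtm*, 13.4 to 15.4 CPM in overfed and 14.1 to 31.9 CPM in EtOH. In *mtm*, 8 of the 23 were at 0 in every library, *cd79b*, *pax5*, *ccr7* and *cd8a* among them. The other groups were alike in this, with 8 such genes in WT, 7 in overfed and 7 in EtOH. *cd79b* and *ccr7* were at 0 in every library of all groups.

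Endothelial genes were called higher for 5 of 16 in *mtm* (median 1.01) and 2 of 16 in EtOH (median 1.19). The shares over all tested genes were 10.1% in *mtm* and 4.66% in EtOH. The vessel gene *plvapb* was called in each (1.45 ± 0.39 SE, edgeR adjusted p = 0.0143 in *mtm*, 2.9 ± 0.42, adjusted p = 0.000517 in EtOH), and *kdrl*, *cdh5* and *fli1a* in neither. Their sum was 166 to 909 CPM in WT, 364 to 655 CPM in *mtm*, 125 to 334 CPM in overfed and 469 to 1057 CPM in EtOH (18 genes, none at 0 in a whole group). Since *lsp1* is known from endothelium too, these levels stand beside its values, and their part in them was not tested.

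Part of the hepatocyte genes were lower in *mtm*, with 7 of 15 called lower and none higher (median -1.0), where 8.59% of all tested genes were called lower. *apoa1b* (-1.74 ± 0.43 SE, edgeR adjusted p = 0.00896) and *apoa2* (-2.64 ± 0.48, adjusted p = 0.000944), the apolipoproteins of high-density lipoprotein, were among them, and *fabp10a* (-0.04 ± 0.33, adjusted p = 0.959) and *rbp4* (-0.18 ± 0.34, adjusted p = 0.785) were not. The sum was 43943 to 228760 CPM in *mtm*, 274717 to 337849 CPM in overfed and 115465 to 197507 CPM in EtOH, where 1 gene was called higher and 2 lower (2.7% of all tested genes were lower). The part of this shift in the CPM of the marker genes was not tested.

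Of 9 bile duct genes, 5 were called higher in *mtm* and 2 in EtOH, where 10.1% and 4.66% of all tested genes were. *epcam* (3.57 ± 0.54 SE, edgeR adjusted p = 0.000232), *anxa4* (1.84 ± 0.43, adjusted p = 0.00572) and *krt8* (1.14 ± 0.22, adjusted p = 0.00166) were called in *mtm*, and *krt4* was not. Of 8 stellate cell and matrix genes, 3 were called higher in *mtm*, including *pdgfrb* (2.35 ± 0.39 SE, edgeR adjusted p = 0.000444), and 1 in EtOH, while *colec11*, *col1a1b* and *col1a2* were called in neither.

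Of 11 erythrocyte genes, 1 was called lower in *mtm*, a share near the 8.59% of all tested genes, and none in EtOH, and the globin genes *hbbe1.1*, *hbbe1.3*, *hbae1.3* and *hbae3* were called in neither. None of 12 exocrine pancreas genes was called in either, *prss1*, *prss59.2*, *ctrb1* and *ela2l* included. Of 6 intestine genes, *fabp2* (-4.51 ± 0.76 SE, edgeR adjusted p = 0.000503) and *apoa4a* (-4.8 ± 1.01, adjusted p = 0.00303) were lower and *cdh17* higher (2.02 ± 0.62, adjusted p = 0.0306) in *mtm*, *anpepb* was not called, and none was called in EtOH. None of 11 muscle genes was called in *mtm*. In EtOH 1 was, *ckmb*, and *actc1b*, *pvalb1*, *pvalb2* and *mylpfa* were not, and with EtOH 1 and *mtm* R2 left out 7 were. The part of these cell types in the levels of the marker genes was not tested.

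**Figure D4:**
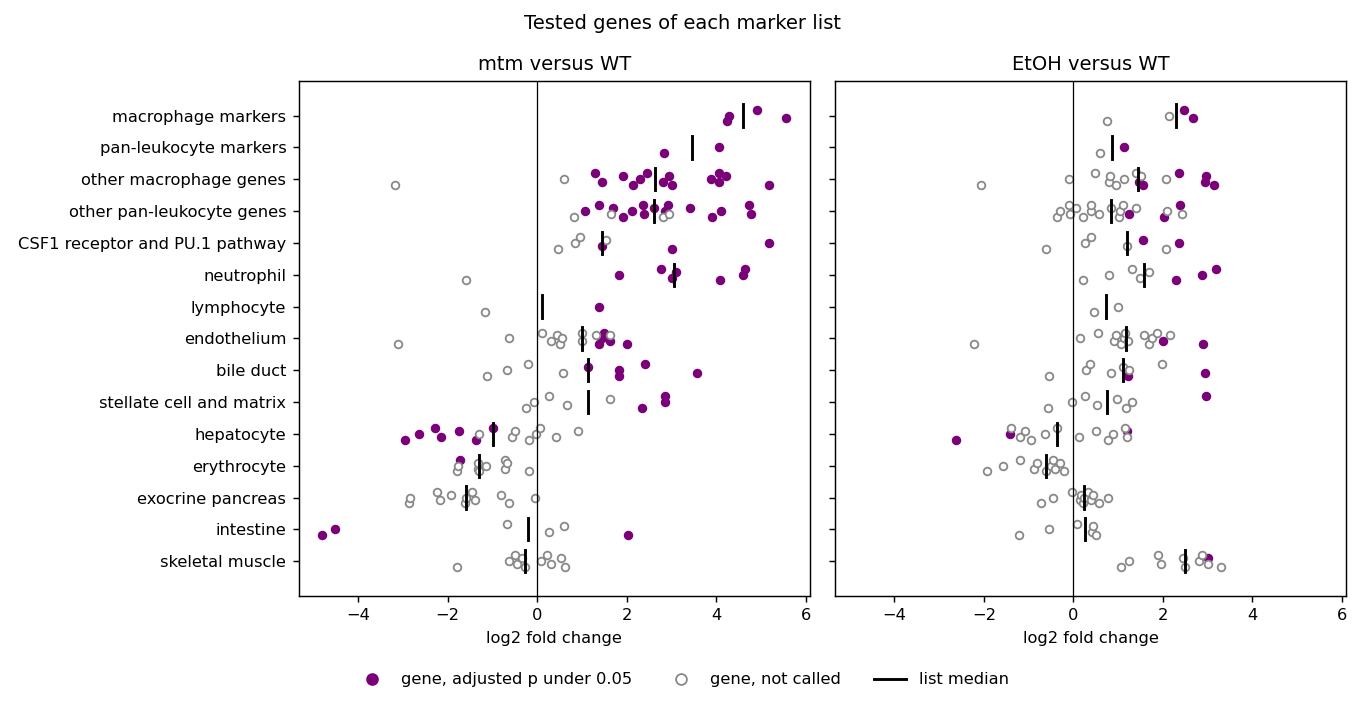
Log2 fold changes of the tested genes of each marker list in *mtm* versus WT and EtOH versus WT. Each point is a gene, filled where its edgeR adjusted p is under 0.05, and black bars are list medians. In *mtm* the other macrophage (2.63), other pan-leukocyte (2.62) and neutrophil (3.06) medians lie above 0 and the hepatocyte median (-1.0) below.

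The series also holds libraries of 20 livers each at 6 dpf from *abcb11b* mutants and their WT siblings, given here as counts with no test. The column headers of all these libraries, mutant and WT sibling alike, name DMSO, which the study's methods for them do not mention. The libraries labelled WT sibling 1 and 2 were identical in all 19707 genes and were counted as 1 library. The gene ID named ABCB11 held 108, 69 and 165 counts under the mutant label and 0 and 7 under the WT sibling label, higher in the former, so directions are given by label only.

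*marco* had 30, 45 and 35 counts in the libraries labelled mutant and 24 and 29 in those labelled WT sibling. *havcr1* had 30, 24 and 23 counts against 5 and 13. For *havcr1* every library labelled mutant was above every library labelled WT sibling, in counts and as CPM of the library total (2.23, 2.07 and 1.84 against 0.465 and 1.2). For *marco* this was so in counts only, since as CPM the labels overlapped (2.23, 3.87 and 2.81 against 2.23 and 2.68).

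The pan-leukocyte genes overlapped between these labels. *ptprc* had 33, 45 and 21 counts against 33 and 35, and *coro1a* had 71, 119 and 29 against 43 and 43. *lcp1*, which encodes L-plastin, had 134, 218 and 52 counts against 98 and 61. *csf1ra*, *mpeg1.1*, *spi1b* and *lsp1* were not matched to an ID there. The symbol *mfap4* matched 6 IDs. The ID with the most counts had 80, 102 and 84 against 113 and 104, lower in every library labelled mutant. The next had 48, 79 and 30 against 28 and 38, and the others had at most 15 in any library.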

How the data were processed

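Bulk RNA-Seq of dissected zebrafish livers was read from the table of estimated counts that the authors deposited, which they made with Salmon on GRCz11 after Trim Galore 0.6.6 and FastQC 0.11.09, and tested with DESeq2 1.24.0 (per the labels and the methods). The estimated counts were deposited as whole numbers and used as they stood, and no column lacked a sample. The 15 genes named as dates were left as they stood. Depth was 8919274 to 20582311 counts per library, so genes of a few counts in WT have wide errors.

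The design followed the methods of the study. Genes with at least 5 reads in at least 0.8 of the 18 libraries were fitted with edgeR 4.0.16 (R 4.3.3), by TMM scaling and the quasi-likelihood test with the replicate number as covariate, over all 4 groups at once. A call is a Benjamini-Hochberg adjusted p under 0.05 over all tested genes. CPM used TMM-scaled totals, and log2 CPM a prior count of 2. *csf1ra* and *ptprc* were tested by two-sided exact permutation of mean log2 CPM (SciPy 1.17.1). The fitting step was checked on simulated counts.

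The marker genes and the gene lists were chosen with earlier results of these data known. Named from each other list were all close copies, or the 4 tested genes of highest mean CPM, of which 1 is not reported here. Further genes were named after their values were seen. Alternatives were no replicate block, DESeq2 1.42.0, its size factors in edgeR, no filter, the compared groups alone, either *mtm* submission, same-numbered *mtm* libraries summed, a stricter call rule and each library left out. Promoter and protein sequences were not used here.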

Additional observations from a re-analysis of the deposited data

Results flagged for a closer look

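Of 32 sets of 1 marker gene in 1 group, 3 held a library far from the others relative to the range of the group, and chance alone marks about 1 set in 20. *marco* in overfed 2 was at 1.95 CPM, and the next highest overfed library was at 1.26 CPM. *csf1ra* in EtOH 4 was at 0.154 CPM, which is 2 counts, with 0 in the other EtOH libraries. *coro1a* in *mtm* R2 was at 0 CPM, and the next lowest *mtm* library was at 29.6 CPM. The cause of these values was not tested.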

How the results depend on the processing

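Over the 6 comparisons, the number of marker genes called stayed within 1.5 times in 58 of 60 refits and in 106 of 108 that left out 1 library. Both kinds of exception were in *mtm* versus EtOH, where 4 genes were called as reported, 1 with the compared groups alone and 2 when an absolute log2 fold change above 2 was also asked for. Leaving out 1 library gave 4 to 7 genes in *mtm* versus WT (4 without WT 2 and, with *ptprc*, 5 without WT 3), 2 to 4 in EtOH versus WT, 0 in overfed versus WT, 2 to 5 in *mtm* versus EtOH, 5 to 7 in *mtm* versus overfed and 3 in EtOH versus overfed. In 4 of these fits (without EtOH 1, WT 3, WT 4 or overfed 3) *ptprc* passed the filter, so they tested 7 genes.

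The direction turned only where no gene was called. For *mpeg1.1* in EtOH versus overfed (-0.14 as reported) it was 0.14 with no replicate block and 0.66 with EtOH 1 and *mtm* R2 left out, a choice made after seeing the data. With 1 library left out it ran from -1.1 to 0.65 there, and from -0.73 to 1.48 in EtOH versus WT. In overfed versus WT the ranges were -0.53 to 0.25 for *marco*, -0.31 to 1.06 for *mfap4*, -0.10 to 0.39 for *havcr1*, -0.27 to 0.48 for *csf1ra* and -0.029 to 1.17 for *ptprc*. In EtOH versus overfed they were -0.31 to 0.57 for *coro1a* and -0.14 to 1.41 for *ptprc*. The cause was not tested.

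Whether the replicate numbers pair the libraries is not settled by these values. Deviations of same-numbered libraries from their group means correlated at -0.229 to 0.337 over 30 pairs (median -0.0026). Over 90 pairs of other numbers the correlations were -0.357 to 0.269 (median 0.0022). Still, 10 of 18 libraries correlated best with one of their own number, and how many would do so by chance was not tested. With no replicate block, 6 genes were called in *mtm* versus WT, 3 in EtOH versus WT and 6 in *mtm* versus EtOH. In the last, *mpeg1.1* (edgeR adjusted p = 0.0463) and *coro1a* (0.0408) passed. Over all 11489 tested genes, that fit called 1205, 554 and 394 higher in these comparisons. The search of promoter windows for a motif was not run. Depth limits *csf1ra* most, which had 5 counts in all WT libraries together.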

Other observations

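Among the tested genes that are not markers described above, the one whose log2 CPM followed the mean of the 6 marker genes most closely over the 18 libraries was *ccl35.1*, a chemokine gene (Pearson r = 0.955, a description over libraries that share groups). Its mean was 1.89 CPM in WT, 2.66 CPM in overfed, 25 CPM in EtOH and 390 CPM in *mtm*. Next came *si:ch211-153b23.7* (0.950), *abracl* (0.949), *kalrnb* (0.948), *cobll1a* (0.945), *stim1a* (0.943), *fcer1gl* (0.942), *il6st* (0.939), *plpp3* (0.938) and *cnn2* (0.934). In all, 52 genes had an r over 0.9. The marker genes' own values against this mean, of which each is a part, were 0.982 for *mfap4*, 0.948 for *havcr1*, 0.947 for *marco* and *lsp1*, 0.856 for *mpeg1.1* and 0.682 for *coro1a*, the gene at 0 in *mtm* R2.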
